A study of Mus musculus with 10 samples.

Results

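The genes described here are 50 genes of cardiac energy metabolism, 50 of the 54532 genes in the deposited count table. They were taken by name: 7 genes of fatty acid entry, activation and the carnitine shuttle, 11 enzymes of beta-oxidation, 3 genes of the electron transfer flavoprotein system, 3 transcriptional regulators, 4 genes of the pyruvate dehydrogenase complex and its kinase, 12 genes of the citric acid cycle, and 10 genes of glucose uptake, glycolysis and lactate. Each symbol was matched to the Ensembl gene that carried most counts, and all 50 genes had enough counts to be tested.

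The heart muscle cell burns mostly long-chain fatty acids. These are bound by a carrier protein, activated to acyl-CoA, passed into the mitochondrion as carnitine esters and shortened by beta-oxidation to acetyl-CoA, whose electrons reach the respiratory chain partly through the electron transfer flavoprotein. Glucose is the competing fuel: its pyruvate enters the citric acid cycle through the pyruvate dehydrogenase complex, which pyruvate dehydrogenase kinases switch off when fatty acids are burnt. The nuclear receptors PPAR alpha and ERR alpha and the coactivator PGC-1 alpha are the classical activators of these genes in heart.

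RNA was sequenced from peri-pulmonary vein tissue, the part of the left atrium around the mouths of the pulmonary veins, in 6 CKO and 4 Ctrl mice. CKO mice carried R26creERT2/creERT2 with Tbx5 flox/flox, and Ctrl mice carried R26creERT2/creERT2 with Tbx5 +/+. Both groups therefore carried the Cre recombinase and both received tamoxifen, on 3 days from 6 weeks of age, with tissue taken 1 week later, at 7 weeks. TBX5 is a T-box transcription factor of the atria. Cre was expressed from the ROSA26 locus, which is active in nearly all cell types, and which cell types lost Tbx5 was not measured.

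The 10 libraries held between 8602794 and 10040808 summed counts each. Exon 3 of Tbx5, the exon flanked by loxP sites, had 0.175 to 0.618 times the coverage of the median Tbx5 exon in the 6 CKO libraries and 0.903 to 1.7 times in the 4 Ctrl libraries, and the groups did not overlap. Counts over the whole gene, which include exons outside the deleted part, were 167 to 425 CPM in CKO and 89.6 to 159 CPM in Ctrl (CPM, counts scaled to a library of 1000000). All 12 cardiomyocyte markers were detected, with a summed level of 82818 to 143387 CPM in CKO and 77552 to 121082 CPM in Ctrl. At an adjusted p under 0.05 (edgeR), 4 were higher in CKO (Tnnt2, Tnnc1, Mybpc3 and Csrp3) and none lower. At an unadjusted p under 0.05 there were 7 of the 12, 6 with positive fold changes and 1 negative. The negative one was Ryr2, at -0.89 on the log2 scale (edgeR unadjusted p = 0.00852). Summed white and brown fat markers were 405 to 2761 CPM in CKO and 1544 to 3109 CPM in Ctrl, with all 12 fold changes negative and 3 of the 12, Plin1, Retn and Pck1, at an unadjusted p under 0.05. Airway epithelium markers reached 6981 CPM in CKO 4 and 4212 CPM in Ctrl 3, and were between 0.63 and 241 CPM in the other libraries. CKO 4 and Ctrl 3 were left out together in an alternative fit given below. Of 7 macrophage markers, 2 were higher in CKO, and all 7 had positive fold changes, with a median of 0.80 on the log2 scale, and an unadjusted p under 0.05; their part in the results was not tested. In such bulk tissue, fewer cells of a type and less RNA per cell cannot be told apart.

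The question was whether loss of Tbx5 changed the fuel genes of this tissue. Of the 50 genes, 1 passed the test and was higher in CKO, Idh2, and 0 were lower (edgeR quasi-likelihood F test, Benjamini-Hochberg adjusted p under 0.05 over all 17752 tested genes). Over all tested genes 497 passed, which is 2.8%, with 1.54% higher and 1.26% lower in CKO. At an unadjusted p under 0.05 there were 6 of the 50 genes (Idh2, Pgk1, Fabp3, Acadvl, Hadha and Acadl), all with positive fold changes, beside 3018 of all 17752 genes; these shares are 12% of the metabolic genes and 17% of all genes. DESeq2 on the same counts passed 3 of the 50, Idh2, Fabp3 and Pgk1, among 1132 of all genes.

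The fold changes of the 50 genes were small. On the log2 scale of CKO over Ctrl they ran from -0.35 for Ppargc1a to 0.51 for Fabp3, with a median of 0.10 beside -0.03 over all tested genes, and 34 were positive and 16 negative. For 36 of the 50 genes the 95% interval of the fold change lay wholly within a 1.5-fold difference in either direction, against 39.4% of all tested genes. The median half-width of the interval was 0.31 for the 50 genes and 0.45 over all tested genes, so this contrast also reflects narrower intervals. For 9 genes the interval reached 1.5-fold higher in CKO and for 6 it reached 1.5-fold lower, Pdk4 being counted in both, so that for these 14 genes a difference of that size was not excluded by the data.

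**Figure D1:**
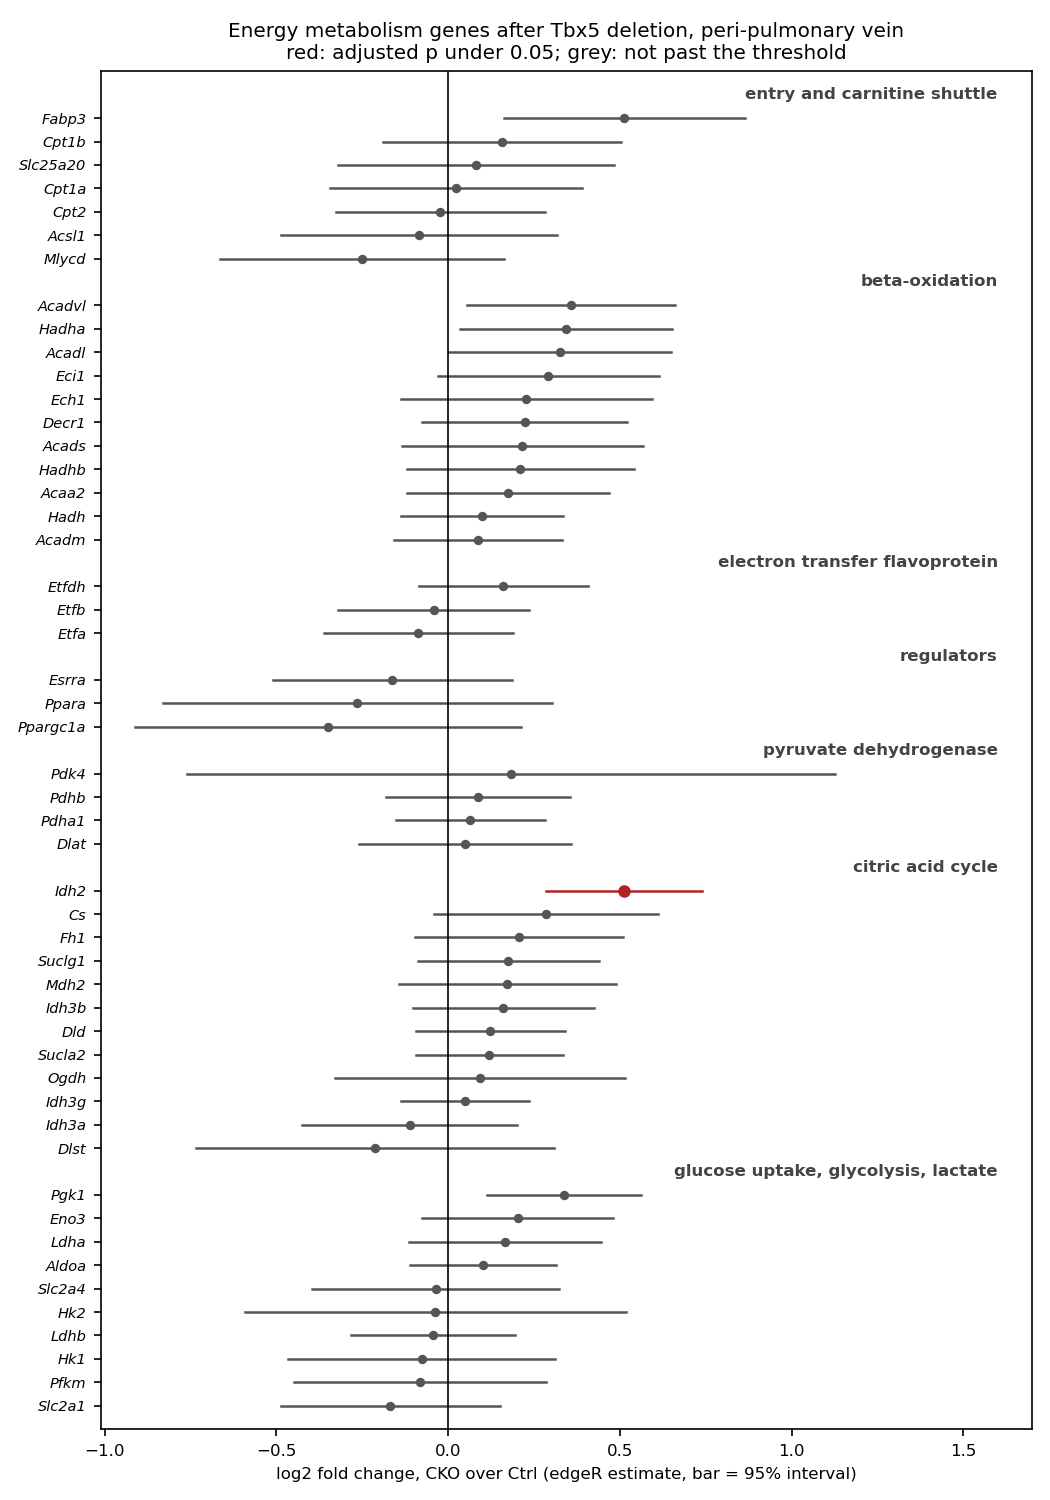
Log2 fold change of CKO over Ctrl for each of the 50 genes, grouped by role, with points for edgeR estimates and bars for 95% intervals. Idh2 (red) is the gene past the adjusted threshold, all 11 beta-oxidation points lie right of 0 and all 3 regulator points lie left of it.

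On counts, all 11 beta-oxidation enzymes, all 4 pyruvate dehydrogenase genes and 10 of 12 citric acid cycle genes had positive fold changes, and all 3 regulators and 6 of 10 glycolytic genes had negative ones. TPM, transcript abundance scaled by length, is given per transcript in the deposited files and was summed per gene and tested with limma, so that unit and test change together. On TPM the median of all tested genes was -0.16 and that of the 50 genes -0.05, and 8 of 11 beta-oxidation enzymes, 1 of 4 pyruvate dehydrogenase genes and 5 of 12 citric acid cycle genes had positive fold changes. Relative to the median of all tested genes in each fit, 11, 4 and 10 of these genes lay above it both on counts and on TPM, and 0 of the 3 regulators did. With 1 library left out in turn, still on counts, the 11 beta-oxidation enzymes stayed positive. Positive fold changes then numbered 9 to 10 for the citric acid cycle, 2 (without Ctrl 3) to 4 for pyruvate dehydrogenase, 4 to 9 for glycolysis (9 without Ctrl 2, 7 without CKO 4), 2 to 6 for fatty acid entry and 29 to 43 for all 50 genes.

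Per length, the 50 genes together took 2.24% ± 0.125 of all TPM in CKO (SD, n = 6) and 2.23% ± 0.364 in Ctrl (SD, n = 4). By summed TPM, beta-oxidation had 5356 ± 439 in CKO and 5051 ± 863 in Ctrl, the citric acid cycle 5335 ± 451 in CKO and 5426 ± 828 in Ctrl, and glucose uptake, glycolysis and lactate 5347 ± 492 in CKO and 5577 ± 757 in Ctrl. These 3 groups were of nearly equal size in this tissue, and in each the groups of mice differed by less than the SD. The fatty acid entry genes summed to 2964 ± 88.8 TPM in CKO and 2588 ± 481 TPM in Ctrl, and the pyruvate dehydrogenase genes to 2005 ± 211 TPM in CKO and 2049 ± 666 TPM in Ctrl. The electron transfer flavoprotein genes had 1303 ± 117 TPM in CKO and 1424 ± 182 TPM in Ctrl. The 3 regulators summed to 113 ± 25.1 TPM in CKO and 158 ± 44.5 TPM in Ctrl. The roles hold different numbers of genes, so these sums are not levels per gene. Esrra, at a mean of 68.0 TPM over all 10 libraries, was above Cpt1a at 47.2 TPM and Mlycd at 39.5 TPM.

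**Figure D2:**
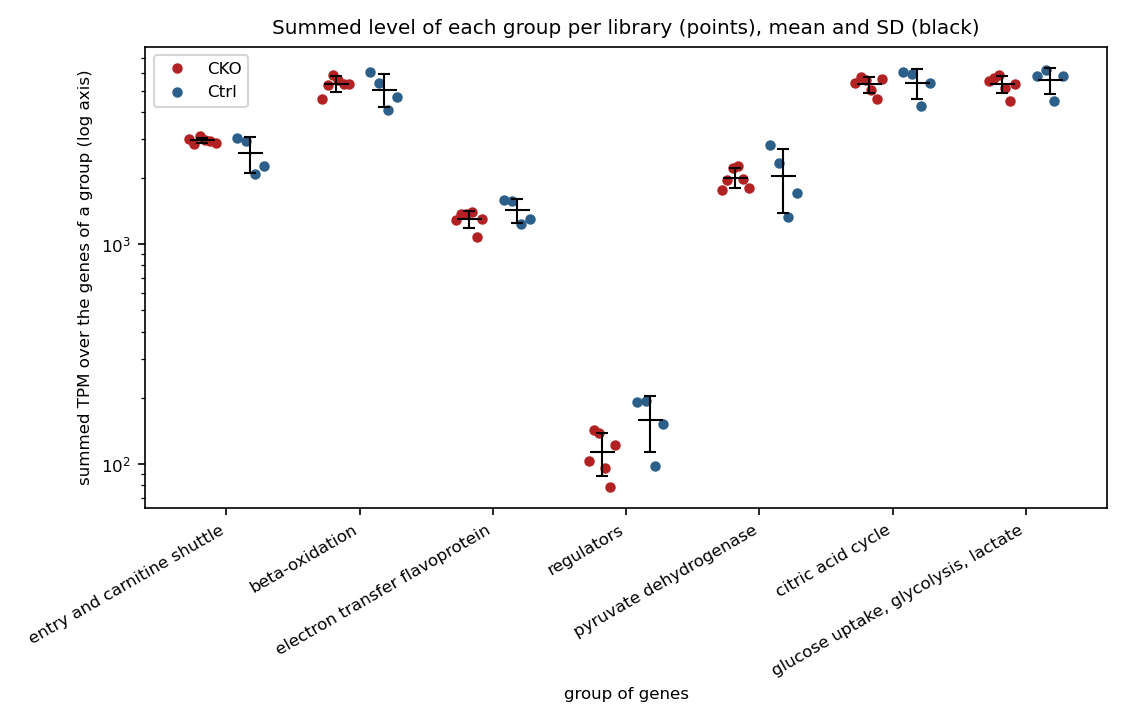
Summed TPM of the genes of each role (log axis) in each CKO (red) and Ctrl (blue) library, with the mean and SD in black. Beta-oxidation, citric acid cycle and glycolysis sit near the same level, and the 3 regulators lie at 113 TPM in CKO and 158 TPM in Ctrl.

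FABP3, the heart form of the fatty acid-binding protein, is the carrier protein that binds fatty acids. Fabp3 had 811 CPM in the lowest, 870 in the median and 1129 in the highest of 6 CKO libraries, against 743, 740, 647 and 452 CPM in the 4 Ctrl libraries. Every CKO library was above every Ctrl library. Its log2 fold change was 0.51 ± 0.16 (SE) and the gene did not pass (edgeR adjusted p = 0.131). Fabp3 was the most abundant of the 7 entry genes per length, at 2073 ± 114 TPM in CKO and 1608 ± 311 TPM in Ctrl, and the second most abundant of all 50 after Aldoa.

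The other entry genes spanned 0, and the median of all 7, 0.02, lay between -0.05 and 0.12 with 1 library left out. Mlycd, which encodes malonyl-CoA decarboxylase and so relieves the block that malonyl-CoA puts on carnitine palmitoyltransferase 1, had 33.2, 40.2 and 49.8 CPM at the lowest, median and highest of CKO libraries, against 61.0, 61.2, 35.8 and 36.8 CPM in Ctrl. The CKO values lay in and below the Ctrl range, with a log2 fold change of -0.25 ± 0.19 (edgeR adjusted p = 0.530). Acsl1, the main long-chain acyl-CoA synthetase of heart, had a log2 fold change of -0.09, and the transferases and the carrier had 0.02 for Cpt1a, 0.16 for Cpt1b, -0.02 for Cpt2 and 0.08 for Slc25a20. Adjusted p-values of these genes were 0.646 or more (edgeR). CPT1 exists as a muscle form, Cpt1b, and a liver form, Cpt1a; the liver form made up 13.2% ± 2.87 of their summed TPM in CKO and 14.5% ± 1.65 in Ctrl, so that the muscle form led in every library of both groups.

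The beta-oxidation enzymes had a median log2 fold change of 0.22, from 0.09 for Acadm to 0.36 for Acadvl, and 0 of 11 passed. The median was between 0.12 (without Ctrl 4) and 0.35 (without Ctrl 1) with 1 library left out. On TPM with limma it was 0.074, beside -0.16 over all tested genes. Acadvl, the very-long-chain acyl-CoA dehydrogenase, had 596, 665 and 740 CPM at the lowest, median and highest of CKO, against 644, 577, 393 and 478 CPM in Ctrl. All 6 CKO values exceeded the Ctrl mean, but Ctrl 1 lay inside the CKO range. Acadvl thus had a log2 fold change of 0.36 ± 0.14 (edgeR adjusted p = 0.223).

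Hadha and Hadhb encode the alpha and beta subunits of the mitochondrial trifunctional protein, which carries out the last steps of each round on long chains. Hadha had 697, 804 and 906 CPM at the lowest, median and highest of CKO, against 773, 733, 503 and 553 CPM in Ctrl. Ctrl 1 and Ctrl 2 lay in the CKO range and Ctrl 3 and Ctrl 4 below it. Hadha had a log2 fold change of 0.34 ± 0.14 (edgeR adjusted p = 0.247) and Hadhb of 0.21 ± 0.15 (adjusted p = 0.508).

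Ech1, an auxiliary enzyme that moves double bonds of unsaturated acyl chains, was the most abundant enzyme of this group per length over all 10 libraries, at 834 ± 123 TPM in CKO and 780 ± 158 TPM in Ctrl; in Ctrl alone the thiolase gene Acaa2 had a mean of 789 TPM. It had 439, 469 and 728 CPM at the lowest, median and highest of CKO, against 486, 470, 445 and 330 CPM in Ctrl. CKO 5 alone held the high value and the other 5 CKO libraries lay among the Ctrl values. Its log2 fold change was 0.23 ± 0.17 (edgeR adjusted p = 0.517).

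Among the remaining acyl-CoA dehydrogenases, Acadl for long chains had a log2 fold change of 0.32, Acads for short chains 0.22 and Acadm for medium chains 0.09. The hydroxyacyl-CoA dehydrogenase Hadh had 0.10 and the thiolase Acaa2 0.17. The other enzymes for unsaturated chains had 0.22 for Decr1 and 0.29 for Eci1. None of these 7 passed, with edgeR adjusted p from 0.292 for Acadl to 0.729 for Acadm.

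The electron transfer flavoprotein takes electrons from the acyl-CoA dehydrogenases and hands them to its membrane oxidoreductase, Etfdh. Etfdh had 390, 406 and 435 CPM at the lowest, median and highest of CKO, against 426, 413, 314 and 312 CPM in Ctrl, a log2 fold change of 0.16 ± 0.11 (edgeR adjusted p = 0.495). The CKO libraries were closely grouped, around Ctrl 1 and Ctrl 2 and above Ctrl 3 and Ctrl 4. Etfa, the alpha subunit, had 163, 188 and 209 CPM at the lowest, median and highest of CKO, against 225, 231, 169 and 166 CPM in Ctrl.

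Etfb, the beta subunit and the most abundant of the 3 per length, had 193, 256 and 289 CPM at the lowest, median and highest of CKO, against 276, 269, 265 and 208 CPM in Ctrl. For both subunits the groups overlapped. The log2 fold changes were -0.09 ± 0.13 for Etfa and -0.04 ± 0.13 for Etfb (edgeR adjusted p = 0.763 and 0.893).

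The 3 regulators had negative fold changes and wide spreads. Ppargc1a, which encodes PGC-1 alpha, had 59.1, 102 and 135 CPM at the lowest, median and highest of CKO, against 159, 132, 79.4 and 131 CPM in Ctrl. The lowest values were those of CKO 5 and CKO 4 and the lowest in Ctrl was that of Ctrl 3, and the groups overlapped. The log2 fold change was -0.35 ± 0.26 (edgeR adjusted p = 0.518), with a 95% interval from -0.91 to 0.21.

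Ppara, the fatty acid-activated receptor, had 23.6, 36.1 and 51.1 CPM at the lowest, median and highest of CKO, against 57.1, 47.8, 25.1 and 46.1 CPM in Ctrl. As for Ppargc1a, CKO 5 was the lowest and Ctrl 1 the highest library, and the groups overlapped. Ppara had a log2 fold change of -0.26 ± 0.26 (edgeR adjusted p = 0.636). Esrra, which encodes ERR alpha and was the most abundant regulator per length, had 59.6, 66.4 and 84.9 CPM at the lowest, median and highest of CKO, against 81.4, 102, 58.6 and 67.2 CPM in Ctrl, a log2 fold change of -0.16 ± 0.16 (adjusted p = 0.637).

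With the summed cardiomyocyte marker level as a covariate, Ppara and Ppargc1a passed and were lower in CKO, by -0.49 and -0.61 on the log2 scale (edgeR adjusted p = 0.0199 and 0.00422), in a fit that called 1852 genes in all. Over the other alternatives the adjusted p-values ran up to 0.895 for Ppara and 0.799 for Ppargc1a. The marker level is itself measured in these libraries, and 4 of its 12 genes were higher in CKO. It is a sum of CPM in which Ttn had the largest share, with 37625 of 82818 CPM in CKO 5 and 71662 of 114059 CPM in Ctrl 1. The part of the marker level, or of Ttn within it, in the result was not tested.

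The subunit genes of the pyruvate dehydrogenase complex had fold changes near 0. Pdha1, the catalytic alpha subunit, had 998, 1127 and 1143 CPM at the lowest, median and highest of CKO, against 1172, 1092, 993 and 933 CPM in Ctrl. Pdhb, the beta subunit, had 227, 308 and 319 CPM at the lowest, median and highest of CKO, against 315, 298, 271 and 234 CPM in Ctrl. The groups overlapped for both, with log2 fold changes of 0.06 ± 0.10 for Pdha1 and 0.09 ± 0.12 for Pdhb and 0.05 for Dlat, the dihydrolipoamide acetyltransferase (edgeR adjusted p from 0.752 to 0.887).

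Pdk4, the kinase that turns the complex off and a well-known target of fatty acid signalling, varied more than any other of the 50 genes. It is described for that spread, seen in these values. Pdk4 had 737, 1294 and 1987 CPM at the lowest, median and highest of CKO, against 2151, 1559, 421 and 611 CPM in Ctrl. The Ctrl mice thus spanned the whole range of the CKO mice and more, with Ctrl 1 the highest and Ctrl 3 the lowest of all 10 libraries, and the coefficient of variation was 34.0% in CKO and 68.6% in Ctrl.

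The log2 fold change of Pdk4 was 0.18 ± 0.43, with a 95% interval from -0.76 to 1.13 (edgeR adjusted p = 0.861). Ucp1, a brown fat marker and 1 of the 12 listed fat markers, was highest in Ctrl 1 at 636 CPM. It had 528 CPM in CKO 5 and 478 CPM in Ctrl 2. In the other libraries it was between 50.5 and 313 CPM in CKO and at 92.4 and 208 CPM in Ctrl. CKO 4, next for Pdk4 after Ctrl 1 and CKO 5 at 1683 CPM, had the lowest Ucp1 level, 50.5 CPM. Other fat markers were ordered differently, with Retn highest in Ctrl 3 at 37.9 CPM, where Pdk4 was lowest. The sum of all 12 fat markers was 3109 CPM in Ctrl 1 and 2761 CPM in CKO 5. It was 1745 CPM in Ctrl 2, 1616 CPM in Ctrl 3 and 1518 CPM in CKO 4. Whether fat in the tissue contributed to the Pdk4 level was not tested.

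**Figure D3:**
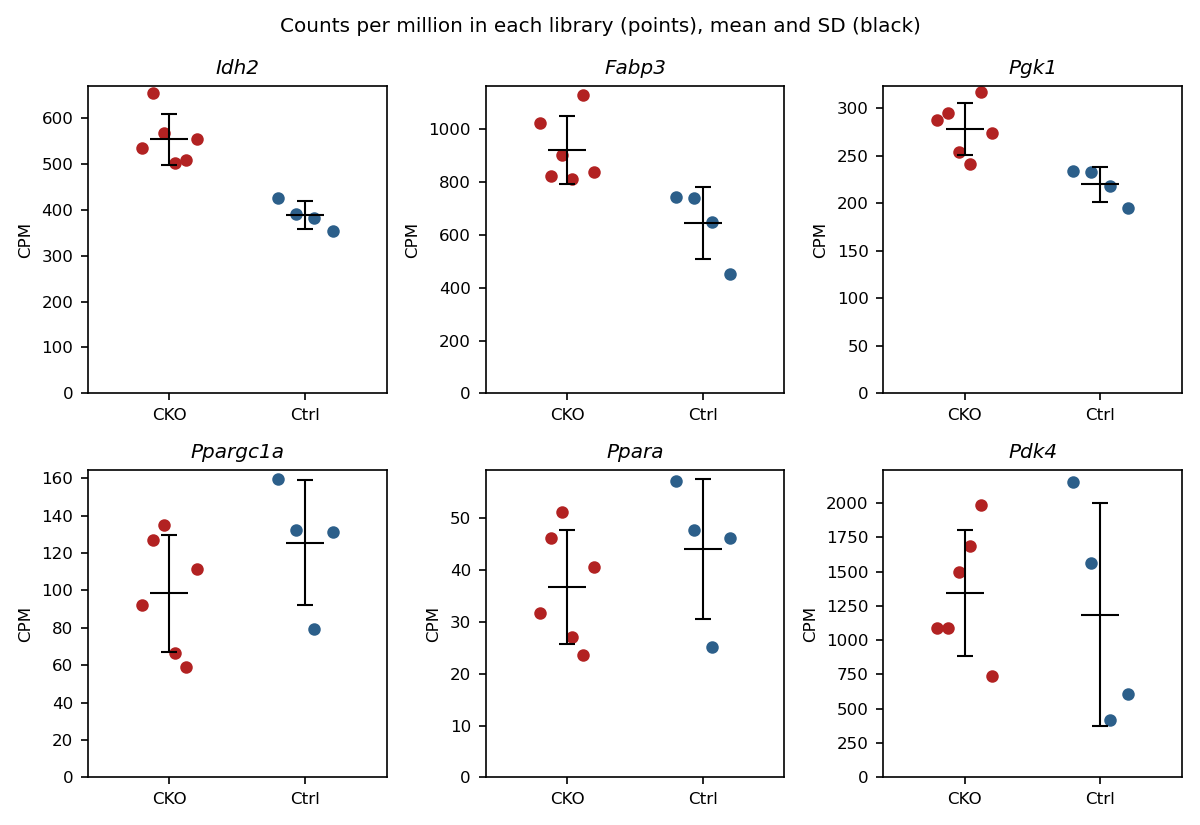
CPM of 6 genes in each CKO (red) and Ctrl (blue) library, with the mean and SD in black. Idh2, Fabp3 and Pgk1 show no overlap between the groups, whereas Ppargc1a, Ppara and Pdk4 overlap widely, with Pdk4 between 421 and 2151 CPM in Ctrl.

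Idh2, the mitochondrial NADP-dependent isocitrate dehydrogenase, which makes NADPH in the matrix, was the gene that passed. It is the Ensembl gene ENSMUSG00000030541 on the minus strand of chromosome 7, from 80094846 to 80115392 in GRCm38. Because it carries the one call among the 50 genes, the 250 bases before its RefSeq start (GRCm38.p6, chr7:80115351-80115600, minus strand, 67.2% G and C) are shown, with the matches to the CCAAT box (CCAAT) and the GC box (GGGCGG), on either strand, in capitals:

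Idh2: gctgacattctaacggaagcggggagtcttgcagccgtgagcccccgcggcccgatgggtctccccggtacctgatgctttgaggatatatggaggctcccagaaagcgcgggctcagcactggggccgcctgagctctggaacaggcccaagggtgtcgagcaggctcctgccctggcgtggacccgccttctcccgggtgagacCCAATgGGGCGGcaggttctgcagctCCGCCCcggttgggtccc

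There are 3 such matches, 1 of the CCAAT box and 2 of the GC box, on opposite strands, all within the bases nearest the start. In windows of 250 bases before to 50 after the RefSeq start, GGGCGG was found for 29 and CCAAT for 21 of the 45 metabolic genes in the promoter table, beside 35.7% and 37.4% of all 32851 promoters. AGGTGTGA, the T-box element, and TNAAGGTCA, an extended half-site for estrogen-related receptors, were found for 0 of the 45, beside 1.28% of all promoters for each. For each of these motifs a gene was counted if any of its promoters matched. The background counts single promoters, so the gene and promoter shares are not directly comparable. A match or its absence in such a window is a description of these letters and no measurement of binding.

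Idh2 had 503, 544 and 654 CPM at the lowest, median and highest of CKO, against 426, 391, 381 and 354 CPM in Ctrl. All 6 CKO libraries lay above all 4 Ctrl libraries, with means of 553 ± 55.3 CPM in CKO and 388 ± 29.6 CPM in Ctrl. The log2 fold change was 0.51 ± 0.10 (SE), or 1.43-fold (edgeR adjusted p = 0.0250). On the length-scaled TPM the groups overlapped, at 462 to 733 TPM in CKO and 426 to 526 TPM in Ctrl.

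Without CKO 1, CKO 6, Ctrl 1, Ctrl 2 or Ctrl 4 the call of Idh2 was lost, at edgeR adjusted p = 0.0507, 0.0506, 0.0519, 0.0791 and 0.0857, and it was lost without Ctrl 3 and CKO 4 together (0.0541), with the fat marker level as a covariate (0.0787), on TPM with limma (0.246), and on the 8 libraries numbered 1 to 4, with a replicate block (0.184) or without one (0.0710). The fold change was positive under all 23 alternatives, between 0.33 and 0.56 on the log2 scale.

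The other genes of the cycle did not pass. Cs, the citrate synthase that opens the cycle, had 731, 831 and 982 CPM at the lowest, median and highest of CKO, against 837, 796, 525 and 653 CPM in Ctrl, a log2 fold change of 0.28 ± 0.15 (edgeR adjusted p = 0.359). Mdh2, the malate dehydrogenase that closes it and the most abundant of the 12 per length, had 442, 555 and 668 CPM at the lowest, median and highest of CKO, against 539, 593, 423 and 427 CPM in Ctrl, a log2 fold change of 0.17 ± 0.14 (adjusted p = 0.574). For both genes Ctrl 3 was the lowest of the 10 libraries and the groups overlapped.

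The NAD-dependent isocitrate dehydrogenase, whose 3 subunits catalyse the main forward step of the cycle, had smaller fold changes than Idh2. Idh3a had a log2 fold change of -0.11, Idh3b of 0.16 and Idh3g of 0.05, with edgeR adjusted p from 0.526 to 0.804. The 2-oxoglutarate dehydrogenase subunits had 0.09 for Ogdh, -0.21 for Dlst and 0.12 for Dld, which pyruvate dehydrogenase shares. Succinyl-CoA ligase subunits had 0.18 for Suclg1 and 0.12 for Sucla2, and the fumarase Fh1 had 0.21. These 9 genes had adjusted p-values between 0.478 and 0.840.

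Glycolytic genes had a median log2 fold change of -0.04, between -0.07 and 0.07 with 1 library left out, with the highest value without Ctrl 2. Pgk1, phosphoglycerate kinase, had 242, 280 and 317 CPM at the lowest, median and highest of CKO, against 234, 233, 218 and 195 CPM in Ctrl. All CKO values exceeded all Ctrl values, by a small margin, and on TPM too the groups did not overlap, at 270 to 308 TPM in CKO and 221 to 268 TPM in Ctrl. The log2 fold change was 0.34 ± 0.10 and the gene did not pass (edgeR adjusted p = 0.119).

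Genes with no overlap between the groups were thus 3 of the 50, Fabp3, Idh2 and Pgk1, beside 5.72% of all tested genes.

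Eno3, the muscle enolase, had 726, 897 and 977 CPM at the lowest, median and highest of CKO, against 842, 859, 646 and 667 CPM in Ctrl, a log2 fold change of 0.20 ± 0.13 (edgeR adjusted p = 0.446). Aldoa, the muscle aldolase, was the most abundant of all 50 genes per length, at 2119 ± 142 TPM in CKO and 2228 ± 247 TPM in Ctrl. It had 1559, 1768 and 1830 CPM at the lowest, median and highest of CKO, against 1731, 1655, 1488 and 1559 CPM in Ctrl, a log2 fold change of 0.10 ± 0.10 (adjusted p = 0.630). The groups overlapped for both genes. Pgk1, Aldoa and Ldha have retrocopies in the mouse genome, and how reads that match several copies were treated is not given in the sources used here.

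The glucose transporters had log2 fold changes of -0.04 for the insulin-responsive Slc2a4 and -0.17 for Slc2a1, the hexokinases -0.08 for Hk1 and -0.04 for Hk2, and the muscle phosphofructokinase Pfkm -0.08 (edgeR adjusted p from 0.585 to 0.958). Slc2a1 was the least abundant of all 50 genes, at 10.8 ± 1.77 TPM in CKO and 16.3 ± 4.52 TPM in Ctrl, and its share of the summed TPM of both transporters was 6.00% ± 0.916 in CKO and 7.55% ± 2.22 in Ctrl. Hk1 made up 46.9% ± 3.17 of the summed hexokinase TPM in CKO and 49.9% ± 6.62 in Ctrl.

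Lactate dehydrogenase is built from the A subunit, typical of glycolytic muscle, and the B subunit, typical of heart. Ldha had a log2 fold change of 0.17 and Ldhb of -0.04 (edgeR adjusted p = 0.538 and 0.872). The B form was 50.4% ± 3.06 of their summed TPM in CKO and 54.4% ± 4.06 in Ctrl. The ranges, 47.5% to 56.0% in CKO and 50.2% to 59.8% in Ctrl, overlapped widely.

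The libraries themselves differed across the 50 genes. CKO 5 was the highest of 10 libraries for 21 genes, Ctrl 4 the lowest for 19 and Ctrl 3 the lowest for 16; within the Ctrl group, Ctrl 1 was the highest for 32 genes. The median coefficient of variation was 13.8% in CKO and 17.6% in Ctrl, and 34 of the 50 genes had the larger one in Ctrl. Genes whose highest and lowest library differed by more than 2-fold within a group were Ppara, Ppargc1a, Pdk4 and Dlst in CKO, and Ppara, Ppargc1a, Pdk4 and Hk2 in Ctrl. Xist, an RNA of female cells, had 1004 to 1371 CPM in CKO 1, CKO 2, CKO 3, Ctrl 1 and Ctrl 2. In CKO 4, CKO 5, CKO 6, Ctrl 3 and Ctrl 4 it had 1.44 to 6.44 CPM. The part of sex in the differences between libraries was not tested.

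**Figure D4:**
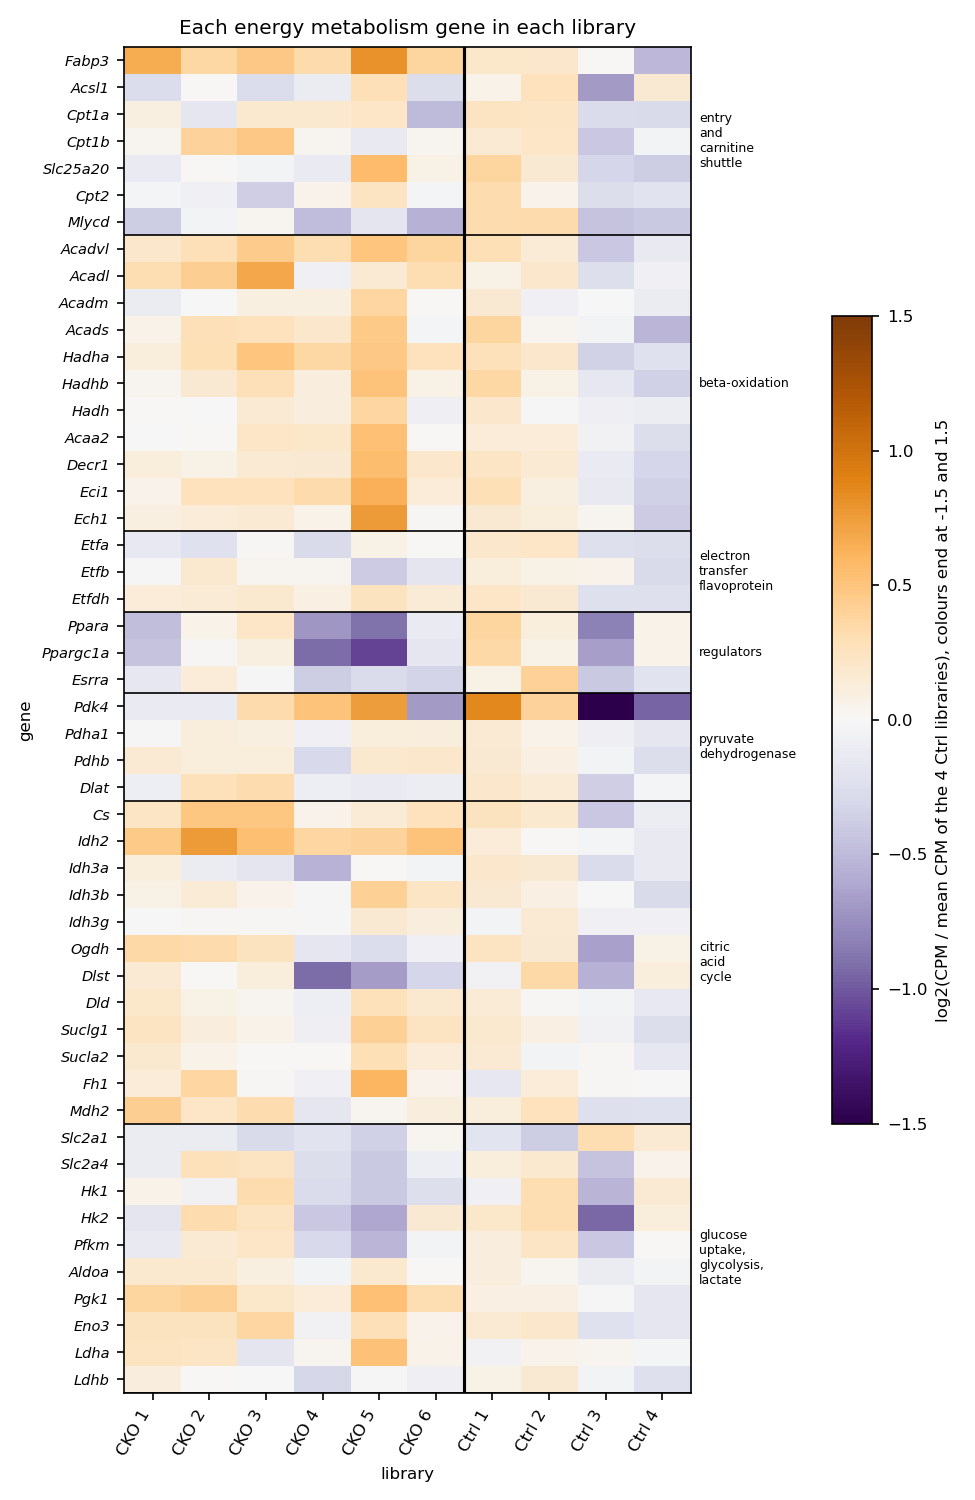
Log2 ratio of each library's CPM to the mean of the 4 Ctrl libraries, for each of the 50 genes (rows, by role), with the 6 CKO libraries left of the 4 Ctrl libraries. CKO 5 is highest for 21 genes, Ctrl 3 and Ctrl 4 are mostly low, and Idh2 is above the Ctrl mean in all 6 CKO libraries.

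Length, which here is not the span of a gene on the chromosome, moved with the fold changes. When all tested genes were split by length into 4 bins of 4438 genes, the median log2 fold change was 0.07 in the bin of shortest genes and -0.08 in that of longest. From shortest to longest, 15, 18, 13 and 4 of the 50 genes lay in the bins. Their median log2 fold changes were 0.17, 0.11, 0.09 and -0.06 in the same order, with 12, 12, 9 and 1 of them positive. In CKO 5, the median log2 deviation from the mean of the libraries was 0.20 for the shortest and -0.17 for the longest genes. The part of length in the fold changes was not tested.

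A further 195 genes around the same pathways were counted from fixed lists, and 194 could be tested. Of these, 3 were higher and 4 lower in CKO, beside 1.54% higher and 1.26% lower of all tested genes. The counts by list below stand beside the same shares. None of 23 further fatty acid oxidation genes and none of 20 genes of ketone body and branched-chain amino acid breakdown passed (edgeR; 4 and 1 of them had an unadjusted p under 0.05). Of 42 nuclear-encoded respiratory chain genes 0 passed (edgeR), 9 had an unadjusted p under 0.05, and 40 had positive fold changes with a median of 0.28 on the log2 scale. These shares are 21.4% and 95.2%, beside 17% and 46.6% of all tested genes. Of the 195 further genes, 10 showed no overlap between the groups, beside 5.72% of all tested genes. The genes named below were picked by the test on these same values, so their separation adds no support.

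Among 27 further genes of the citric acid cycle, pyruvate and the malate-aspartate shuttle, 2 carriers were higher in CKO. Slc25a13, the aspartate-glutamate carrier citrin, had 39.4, 57.8 and 69.9 CPM at the lowest, median and highest of CKO, against 29.3, 30.6, 20.0 and 19.0 CPM in Ctrl, a log2 fold change of 1.17 ± 0.22 (edgeR adjusted p = 0.0166). Slc25a11, the oxoglutarate-malate carrier, had 285, 330 and 354 CPM at the lowest, median and highest of CKO, against 251, 277, 227 and 203 CPM in Ctrl, a log2 fold change of 0.46 ± 0.11 (adjusted p = 0.0463). These carriers move aspartate, glutamate and malate across the inner membrane and so bring NADH electrons into the mitochondrion, and for both the groups did not overlap.

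Of 32 further genes of glycolysis, lactate transport and glycogen, 1 was lower in CKO and 0 were higher. This was Phkg1, the muscle catalytic subunit of phosphorylase kinase, which sets off glycogen breakdown. Phkg1 had 42.5, 50.7 and 57.3 CPM at the lowest, median and highest of CKO, against 93.3, 118, 82.2 and 111 CPM in Ctrl, a log2 fold change of -1.02 ± 0.12 (edgeR adjusted p = 0.00145), and the groups did not overlap.

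Of 26 genes of fatty acid uptake, storage and release, 25 could be tested and 1 was lower in CKO. Dgat2, which makes triacylglycerol, had 96.4, 123 and 152 CPM at the lowest, median and highest of CKO, against 238, 178, 164 and 196 CPM in Ctrl, a log2 fold change of -0.65 ± 0.14 (edgeR adjusted p = 0.0303). The groups did not overlap. Fat cells also express Dgat2, and the summed fat markers had the values given above; their part in this difference was not tested.

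Of 25 further regulators of oxidative metabolism, 1 was higher and 2 lower in CKO. Hif1a, the oxygen-sensitive activator of glycolytic genes, had a log2 fold change of 0.34 ± 0.07, at 121 to 137 CPM in CKO and 97.3 to 106 CPM in Ctrl (edgeR adjusted p = 0.0358). Lpin1, a phosphatidate phosphatase that also acts with PGC-1 alpha, had -0.64 ± 0.14, at 137 to 193 CPM in CKO and 183 to 285 CPM in Ctrl (adjusted p = 0.0376). Prkag2, a regulatory subunit of AMP-activated kinase, had -0.57 ± 0.12, at 46.4 to 61.7 CPM in CKO and 61.3 to 90.9 CPM in Ctrl (adjusted p = 0.0285). Hif1a did not overlap between the groups, whereas for Lpin1 and Prkag2 Ctrl 3 lay within the CKO range.

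These 7 calls among the further genes kept their sign in all 23 alternatives, but not all stayed past the threshold; the highest adjusted p given for each is that over all 23 fits, whichever tool gave it (edgeR, DESeq2 or limma). Phkg1 was called in 22 of 23, all but the replicate block (highest adjusted p = 0.0832), and Slc25a13 in 20, losing its call without Ctrl 4, with the fat marker covariate and on TPM (highest adjusted p = 0.0802). Prkag2 was called in 13 and lost without CKO 1, CKO 5, CKO 6, Ctrl 1, Ctrl 2 or Ctrl 4 (highest adjusted p = 0.222). Dgat2 was called in 12 and lost without any 1 library other than CKO 3, CKO 4 and Ctrl 3 (highest adjusted p = 0.268), and Lpin1 in 11 and lost without any other than CKO 3 and Ctrl 3 (highest adjusted p = 0.326). Hif1a was called in 9 and lost without any other than CKO 3, CKO 5 and Ctrl 3, and with library size as the only scaling, with a highest adjusted p of 0.648. Slc25a11 was called in 8 and lost without any other than CKO 4 (highest adjusted p = 0.268). With the fat marker covariate Phkg1 alone of the 7 stayed past the threshold.

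The study also set the peri-pulmonary vein beside the left atrial appendage, whose libraries come from an earlier study and were not analysed here. The authors' deposited table gives their own log2 fold changes and false discovery rates (FDR) for 13646 genes in 3 comparisons, and all 50 metabolic genes are in it. In the authors' deposited table, CKO against Ctrl in the peri-pulmonary vein passed an FDR of 0.05 for 0 of the 50 genes, beside 5.5% of all genes, with Idh2 at a log2 fold change of 0.49 (FDR 0.195). The authors' fold changes for the 50 genes there had a median of 0.08, with 34 positive and 16 negative.

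In the appendage, the authors' deposited table passed far more genes, 34.7% of all in either direction. Of the 50 metabolic genes, 4 were higher in CKO (16.8% of all genes) and 3 lower (17.9% of all genes). Those higher in the appendage were Dlst at 0.60 (FDR 0.0361), Pgk1 at 0.59 (FDR 0.00503), Ldha at 0.44 (FDR 0.0386) and Eno3 at 0.40 (FDR 0.0431) on the log2 scale of the authors' deposited table, 3 of these 4 being glycolytic enzymes. Those lower in the appendage in the authors' deposited table were Ppargc1a at -1.23 (FDR 4.68e-11), Ppara at -0.83 (FDR 0.000745) and Acsl1 at -0.74 (FDR 0.00159).

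Set side by side in the authors' deposited table, the same genes in the peri-pulmonary vein had log2 fold changes of -0.37 for Ppargc1a, -0.28 for Ppara, -0.11 for Acsl1, -0.23 for Dlst, 0.32 for Pgk1, 0.15 for Ldha and 0.18 for Eno3, with FDR between 0.428 and 0.915. Dlst had opposite signs in the regions. Idh2 had 0.49 in the peri-pulmonary vein and -0.02 in the appendage (FDR 0.931) in the authors' deposited table. The differences between regions were not tested for these genes.

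By role, the authors' deposited table gave a median log2 fold change in the appendage of 0.17 for beta-oxidation (8 of 11 positive, 0 past the FDR), 0.14 for the citric acid cycle, 0.11 for glycolysis, -0.01 for pyruvate dehydrogenase, -0.05 for fatty acid entry, -0.11 for the electron transfer flavoprotein and -0.83 for the 3 regulators. All 3 regulators were negative in both regions in the authors' deposited table, and Esrra, at -0.12 in the appendage (FDR 0.543), was the smallest there.

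In the comparison of regions, whose column name puts the peri-pulmonary vein before the appendage and which names no genotype, the authors' deposited table passed 12.2% of all genes and 1 of the 50. Idh2 was lower in the peri-pulmonary vein, by -0.77 on the log2 scale (FDR 0.0015). Of the 50 genes, 32 had negative and 18 positive fold changes in the authors' deposited table, with a median of -0.08; the next lowest were Esrra at -0.46 (FDR 0.112), Pfkm at -0.45 (FDR 0.174) and Slc2a4 at -0.44 (FDR 0.169). This comparison shares libraries with both others, so the values of Idh2 here and in the peri-pulmonary vein comparison are not independent measurements. Its peri-pulmonary vein libraries are from this study and its appendage libraries from an earlier one, so region and study cannot be told apart. Fat markers differed greatly between the regions in the authors' deposited table, with all 11 listed markers higher in the peri-pulmonary vein and a median log2 fold change of 5.11, and their part in the metabolic genes' values was not tested.

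**Figure D5:**
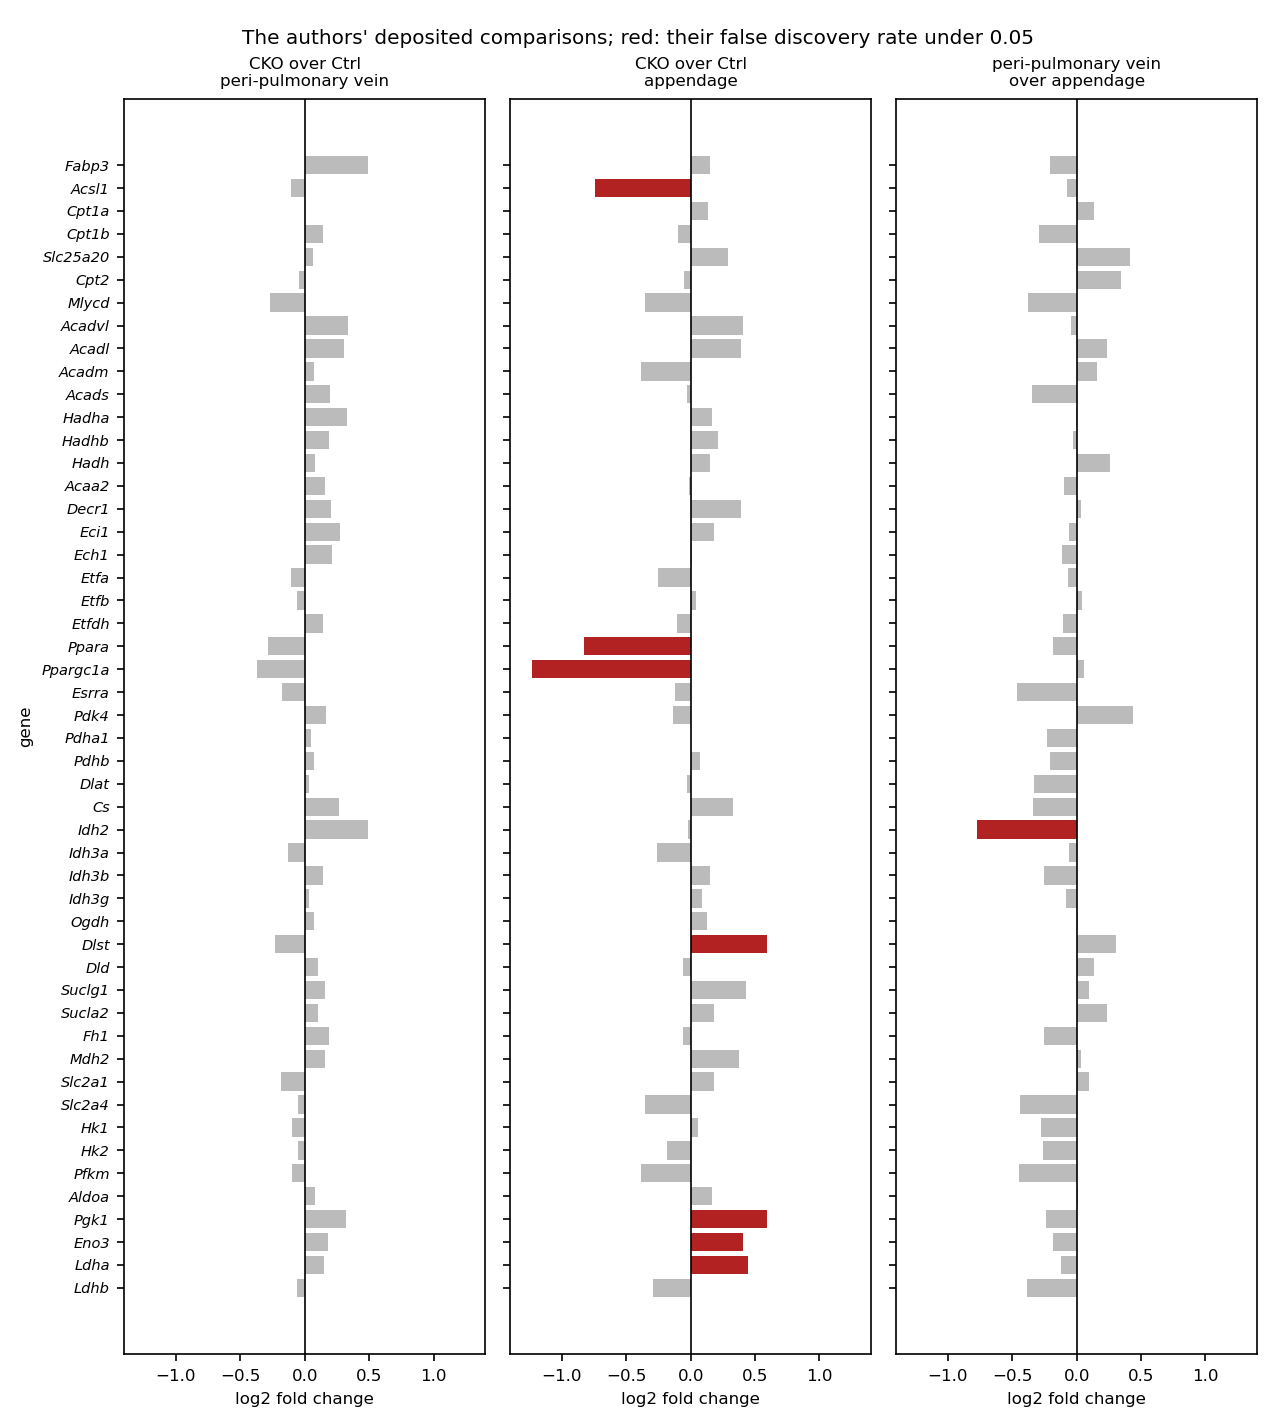
Log2 fold changes of the 50 genes in the 3 comparisons of the authors' deposited table, red where their FDR is under 0.05. In the peri-pulmonary vein 0 genes are red, in the appendage 7 are, led by Ppargc1a at -1.23, and between regions Idh2 at -0.77 is.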

How the data were processed

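The labels give 6 CKO and 4 Ctrl libraries, each from a separate mouse per the study's description, and no batch. Per the submitters' processing notes reads were aligned to mm10 with TopHat2 2.1.1, filtered with BamTools and assigned to transcripts with StringTie 1.3.3; per the file headers this used Ensembl release 94, without new transcripts and with strand. The labels name polyA RNA as the molecule, whereas the study's description names removal of ribosomal RNA. Values in the deposited gene table are estimated counts per gene, which the authors made from transcript coverage and which are whole numbers. The deposited transcript files give coverage and TPM, and the authors' deposited table gives log2 fold changes with p-values and false discovery rates from edgeR 3.18.1 and limma 3.32.10; its model and filter are not stated. The gene table has 10 further columns, of appendage libraries of another study, which were not used.

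The test was the quasi-likelihood F test of edgeR 4.0.16 (R 4.3.3) with TMM scaling and genotype as the only term, on 17752 of 33196 genes with any count (filterByExpr), with p-values adjusted by Benjamini-Hochberg at a threshold of 0.05. CPM are counts scaled by the TMM-scaled library size, and each SE was derived from the fold change and its F. Summed counts ran from 8602794 to 10040808 per library, and the lowest count of any of the 50 genes in a library was 149. On simulated counts with known changes, the fit found 20.6% of 1.5-fold, 46.0% of 2-fold and 95.2% of 4-fold changes. Of its calls there, 3.77% were false. Named genes were, in each role, those past the threshold, the 2 with the lowest p and the most abundant per length; every other gene is given by its fold change. Of the further lists, genes past the threshold are named. The genes and lists were chosen with earlier results of these data known, so no test was adjusted over a list alone. Alternatives were other scaling (RLE, library size only), filters (none, or CPM of at least 1 in 4 libraries), DESeq2 1.42.0, limma 3.58.1 (voom on counts, or trend on log2(TPM + 0.5)), a replicate block, libraries left out, and Xist, cardiomyocyte or fat marker levels as covariates. Marker lists of skeletal muscle (0 of 3 tested genes passed, with 3 of 9 at 0 in all libraries), fibroblast (0 of 8), endothelium (0 of 6), smooth muscle (0 of 5), lymphocyte (0 of 2), red blood cell (0 of 3) and airway (0 of 5) gave no calls in edgeR; at an unadjusted p under 0.05 there were 2, 4, 3, 0, 0, 1 and 0 genes in the same order.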

Additional observations from a re-analysis of the deposited data

Results flagged for a closer look

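In 7 of 100 groups of values (50 genes in CKO and in Ctrl), 1 library lay far from the others of its group by Dixon's criterion, which chance alone meets in about 1 in 20 groups. CKO 5 was the high library in 4 of these, all genes of fatty acid oxidation: Slc25a20 had 179 CPM there and 111 to 127 CPM in the other CKO libraries, Acaa2 841 CPM beside 578 to 676 CPM, Decr1 392 CPM beside 280 to 304 CPM, and Ech1 728 CPM beside 439 to 485 CPM. In CKO 4, Pdhb was low at 227 CPM beside 304 to 319 CPM in the other CKO libraries. In Ctrl 4, Etfb was low at 208 CPM beside 265 to 276 CPM in the other Ctrl libraries. In Ctrl 2, Idh3g was high at 331 CPM beside 284 to 288 CPM in the other Ctrl libraries.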

How the results depend on the processing

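Idh2 was called in 13 of 23 alternative fits and had a positive fold change in all of them. Fabp3 and Pgk1 were called by DESeq2 only, and Ppara and Ppargc1a only with the cardiomyocyte marker covariate. The sign of 25 of the 50 genes changed in some fit, and none of these 25 was called in any. RLE scaling, the CPM filter, limma-voom and the Xist covariate left the sign and call of each of the 50 genes, the sign of the 7 medians by role and, within 1.5 times, the counts of genes past the adjusted threshold as they were. Of all called genes, 55.1% were higher in CKO with TMM scaling and 44.1% with library size alone.

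DESeq2 called 1132 genes and 3 of the 50, and the cardiomyocyte covariate 1852 genes and 3 of the 50; the fat marker covariate, TPM with limma and the fit without Ctrl 3 and CKO 4 called 0 of the 50. On TPM the medians were -0.11 for fatty acid entry, -0.15 for the flavoprotein, -0.052 for pyruvate dehydrogenase and -0.026 for the citric acid cycle; without Ctrl 3 and CKO 4 the median for fatty acid entry was -0.079. The log2 ratios of summed levels, CKO over Ctrl, on CPM in place of TPM were 0.24 for beta-oxidation, 0.042 for the flavoprotein, 0.14 for the citric acid cycle and 0.086 for glycolysis.

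Log2 fold changes that reversed sign with library size alone were -0.032 for Cpt1a, -0.012 for Dlat and -0.011 for Idh3g. With no filter they were 0.020 for Cpt2, 0.0078 for Slc2a4 and 0.0095 for Hk2. On TPM they were -0.12 for Cpt1a, -0.054 for Slc25a20, -0.062 for Acadm, -0.018 for Acads, -0.039 for Hadh, -0.074 for Pdha1, -0.051 for Pdhb, -0.053 for Dlat, -0.094 for Idh3g, -0.13 for Ogdh, -0.023 for Dld, -0.029 for Sucla2, -0.039 for Mdh2 and -0.068 for Aldoa. Without Ctrl 3 and CKO 4 they were -0.079 for Cpt1a, -0.16 for Pdk4, -0.015 for Dlat, -0.0074 for Ogdh and 0.0081 for Ldhb. With the cardiomyocyte covariate they were -0.037 for Dlat and -0.033 for Ogdh, and with the fat covariate 0.086 for Acsl1, 0.21 for Cpt2, -0.040 for Dlat and -0.092 for Ogdh. The cause was not tested in any of these cases.

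Deviations of same-numbered CKO and Ctrl libraries from their group means correlated at 0.0453, 0.116, -0.377 and 0.0959, so the replicate numbers were not taken to pair animals. Of these 8 libraries, 0 correlated best with their own number. The replicate block on numbers 1 to 4 called 51 genes and 0 of the 50, and the same 8 libraries without a block, an alternative chosen after seeing the data, 234 genes and 0 of the 50. The median of the flavoprotein genes was 0.071 with the block and 0.064 without it. Reversed with the block were -0.036 for Slc25a20, 0.071 for Etfb, 0.054 for Slc2a4, 0.043 for Hk1, 0.058 for Hk2 and 0.0031 for Pfkm, and without it -0.071 for Slc25a20, 0.064 for Etfb, 0.054 for Slc2a4, 0.029 for Hk1, 0.024 for Hk2 and 0.00069 for Pfkm.

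Leaving out each library in turn gave 190 to 607 called genes and 0 to 1 of the 50; the count of genes was 305 without CKO 1, 331 without CKO 2, 221 without Ctrl 1, 190 without Ctrl 2 and 237 without Ctrl 4. Log2 fold changes with both signs ran from -0.046 to 0.12 for Dlat, -0.062 to 0.12 for Cpt1a, -0.085 to 0.10 for Cpt2, -0.15 to 0.038 for Slc2a4, -0.24 to 0.089 for Hk2, -0.11 to 0.025 for Ldhb, -0.041 to 0.23 for Slc25a20, -0.13 to 0.019 for Etfb (which is also the median of its group), -0.24 to 0.027 for Acsl1, -0.16 to 0.0039 for Etfa, -0.26 to 0.0096 for Esrra, -0.21 to 0.053 for Hk1, -0.19 to 0.010 for Pfkm, -0.086 to 0.64 for Pdk4 and -0.061 to 0.18 for Ogdh. The log2 ratio of summed TPM ran from 0.10 to 0.28 for fatty acid entry and from -0.19 to 0.16 for pyruvate dehydrogenase.

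The 95% intervals of the 50 log2 fold changes had a median half-width of 0.31 and reached 0.94 for Pdk4.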
